A study of Mus musculus with 8 samples.

Results

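Chromatin that was accessible in squamous cell carcinoma (SCC) cells with wild-type focal adhesion kinase (FAK-WT) was compared with that of cells whose FAK is impaired in nuclear localization (FAK-nls). ATAC-seq, in which a transposase cuts and tags open DNA, gave 2 libraries of each line, among 8 libraries of 4 lines in the series. The 24383 strongest peaks of each of these 4 libraries were merged into 35103 regions. Of these, 1982 regions (5.65%) had a peak in the pair of FAK-WT libraries while FAK-nls had none, and are called the FAK-WT set. Another 1695 regions (4.83%) had the reverse pattern and are called the FAK-nls set. The 2 sets held 3677 regions, and 15484 regions were called in all 4 libraries. Peaks were ranked by −log10 p, the strength of a peak against the local background of its own library. The sets follow from presence and absence of a call alone, so their sizes are descriptions and were not tested.

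FAK, encoded by *Ptk2*, is a non-receptor tyrosine kinase that carries signals from integrins at focal adhesions, where it also acts as a scaffold. Its FERM domain holds basic residues through which FAK enters the nucleus. There it has been linked to transcription factors and chromatin modifiers, and in SCC cells to the expression of cytokines and chemokines that act on immune cells. The comparison of FAK-WT with FAK-nls cells asks which chromatin regions depend on FAK being able to reach the nucleus.

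All lines came from cutaneous SCC of FVB mice of genotype K14CreER FAKflox/flox, in which keratin 14 regulatory sequence drives a tamoxifen-inducible Cre. Tumours had been induced with DMBA and TPA, the driver gene is given as Ha-Ras, and FAK was deleted in the cultured tumour cells with 4-hydroxytamoxifen. FAK-WT cells re-expressed wild-type FAK from a retrovirus. FAK-nls cells re-expressed FAK with the substitutions R177A, R178A, R190A, R191A, R216A and R218A, FAK-kd cells re-expressed kinase-deficient FAK (K454R), and FAK-/- cells had received no FAK construct. The constructs were placed in 1 clone of FAK-/- cells under hygromycin selection, so each line stands for 1 derivation and its libraries for the spread within it. The study calls the libraries of a line biological replicates, but the labels do not say that they came from separate cultures, so p-values measure only the spread between these libraries, which may be technical.

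Stretches of 160 bases are given from regions that held an AP-1 element (GRCm38/mm10, forward strand). Capitals mark an exact match to this element, TGACTCA or TGAGTCA, which is bound by dimers of JUN and FOS proteins. Each stretch was placed around such a match, so the stretches are not typical of either set. Many regions of both sets held no match, and the shares are given further below. The first 3 stretches lie in the FAK-WT set. *Popdc2* is its strongest region (bases chr16:38368406-38368565), *Pappa* belongs to the gene with 5 of its 9 regions in the set (chr4:65254250-65254409), and *Il33* is a cytokine gene central to the study (chr19:29942579-29942738). The central 500 bp of the *Il33* region also held a cAMP response element, TGACGTCA, outside the stretch shown. The paper named that element in its *Il33* enhancer peak and tested c-Jun binding around it.
Popdc2: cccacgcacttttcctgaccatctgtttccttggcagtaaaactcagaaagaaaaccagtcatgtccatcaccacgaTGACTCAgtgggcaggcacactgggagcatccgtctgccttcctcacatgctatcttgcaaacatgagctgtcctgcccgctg
Pappa: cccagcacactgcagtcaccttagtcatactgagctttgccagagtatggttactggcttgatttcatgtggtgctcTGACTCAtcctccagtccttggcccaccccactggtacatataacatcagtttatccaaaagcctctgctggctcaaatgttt
Il33: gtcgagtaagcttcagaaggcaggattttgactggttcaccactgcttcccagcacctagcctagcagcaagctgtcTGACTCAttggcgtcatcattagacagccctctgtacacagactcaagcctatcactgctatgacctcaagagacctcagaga

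The next 3 stretches lie in the FAK-nls set. *Ano4* (chr10:89252686-89252845) is among its strongest regions and had weaker peaks further down the FAK-WT lists. *Ncam1* (chr9:49523989-49524148) and *Arhgap20* (chr9:51813006-51813165) had no peak anywhere in the FAK-WT lists.
Ano4: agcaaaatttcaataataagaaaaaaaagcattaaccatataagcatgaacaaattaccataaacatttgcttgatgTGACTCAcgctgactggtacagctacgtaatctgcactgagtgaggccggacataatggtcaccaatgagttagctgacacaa
Ncam1: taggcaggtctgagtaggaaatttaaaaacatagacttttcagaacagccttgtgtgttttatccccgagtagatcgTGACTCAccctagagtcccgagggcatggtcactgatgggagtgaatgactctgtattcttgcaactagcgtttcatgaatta
Arhgap20: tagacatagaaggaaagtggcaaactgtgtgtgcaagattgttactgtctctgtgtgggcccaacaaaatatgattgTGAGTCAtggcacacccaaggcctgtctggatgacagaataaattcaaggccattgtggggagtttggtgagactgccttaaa

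The libraries differed in more than which regions they called. On chromosomes 1 to 19, X and Y, the FAK-WT lists held 53703 and 39036 peaks and the FAK-nls lists 24383 and 24959 (means 46370 ± 10371 and 24671 ± 407, SD, n = 2 each, two-sided exact permutation p = 0.333, the smallest that 2 against 2 libraries allow). Even at equal peak number, the median peak was 677 and 615 bp long in FAK-WT against 480 and 465 bp in FAK-nls, and the median pileup was 21.5 and 15.1 reads against 8.94 and 8.91. The last peak used had a −log10 p of 8.10 and 5.62 in FAK-WT and of 3.36 and 3.77 in FAK-nls, and the next peak left out had the same value to 3 digits in each of the 3 libraries with any left. Line and library quality cannot be told apart in this design. Fewer cells with an open region and less opening per cell cannot be told apart either. Among promoters of 12 keratinocyte markers, 1 or 2 were called in each of the 4 libraries (*Itga6*, and in FAK-nls 1 *Itgb4*), and those of *Krt5*, *Krt14*, *Trp63* and *Cdh1* in none, so the peaks do not mark the cells as epidermal. At equal peak number, of 8 fibroblast markers 4 to 6 promoters were called, of 8 immune markers 0 or 1, of 6 endothelial markers none, and of 6 melanocyte markers 2 in each library (*Mitf* and *Pmel*).

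The FAK-WT set kept almost all of its regions when every deposited peak was used, and the FAK-nls set kept few. Of the 1982 FAK-WT set regions, 1942 (98.0%) had no peak in the full FAK-nls lists and the other 40 had one in FAK-nls 2. Of the 1695 FAK-nls set regions, 165 (9.73%) had no peak in the full FAK-WT lists, 1171 (69.1%) had a peak in both FAK-WT libraries further down the list, 340 in FAK-WT 1 alone and 19 in FAK-WT 2 alone. The lists were unequal for this purpose, since the peaks used were 45.4% and 62.5% of the FAK-WT lists but 100% and 97.7% of the FAK-nls lists. With all peaks, 58104 regions were formed, of which 10666 (18.4%) had the FAK-WT pattern and 174 (0.299%) the FAK-nls pattern. The bar charts of regions by set show both counts and the fate of each set in the full lists.

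**Figure D1:**
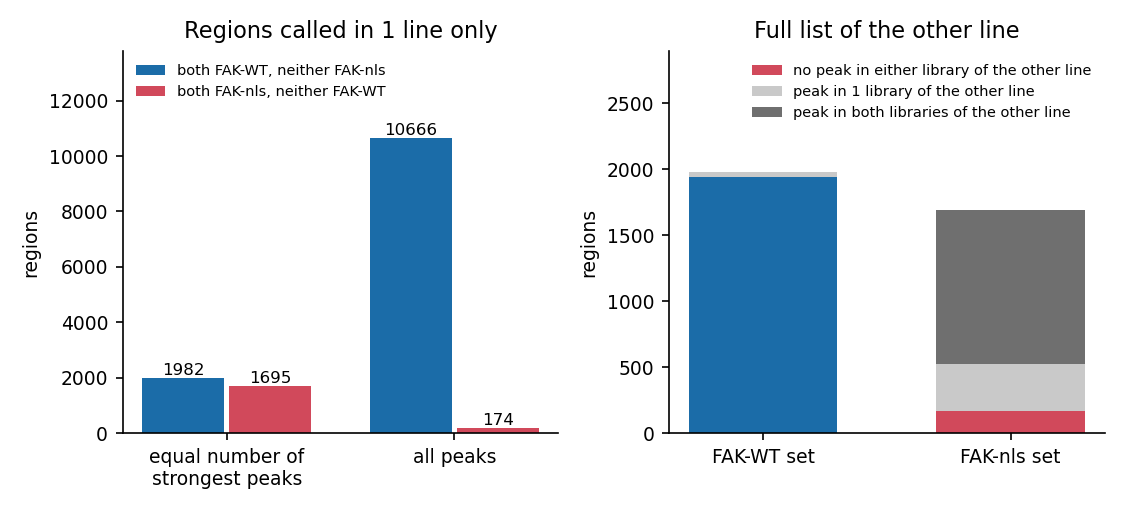
Left, number of regions called in both libraries of 1 line and neither of the other, with equal numbers of strongest peaks (1982 and 1695) and with all peaks (10666 and 174). Right, the 1982 and 1695 regions divided by whether the full lists of the other line held a peak there, with 1942 and 165 regions lacking one in either library.

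Peak strength differed between the libraries as well as between the sets. Fold enrichment, the ratio of reads in a peak to the local background, had a median of 5.55 in FAK-WT 1 and 4.50 in FAK-WT 2 over the FAK-WT set. In the FAK-nls set the medians were 3.86 in FAK-nls 1 and 3.98 in FAK-nls 2. The medians over all the peaks used were 5.66 and 4.72 in FAK-WT and 4.27 and 4.46 in FAK-nls, so each set lay below its own libraries, the FAK-nls set further than the FAK-WT set. For the 1171 FAK-nls set regions that also had FAK-WT peaks, the medians were 3.99 and 3.49 in FAK-WT against 3.79 and 3.94 in FAK-nls. Both FAK-nls libraries lay above both FAK-WT libraries in 328 of the 1171 regions (28.0%), below both in 69 (5.89%), and the lines overlapped in the other 774. The mean FAK-nls value was over 1.5 times the FAK-WT mean in 6 of these regions. Among the 15484 regions called in all 4 libraries at equal peak number, FAK-nls lay above both FAK-WT libraries in 5.64% and below both in 43.3%. The median ratio of FAK-nls to FAK-WT means was 1.06 in the 1171 regions and 0.882 in the 15484. Most of the FAK-nls set thus had peaks in FAK-WT cells, at a lower place in a longer list, and beside the shared regions its values were shifted towards FAK-nls. Since the set was chosen on the ranks of the same peaks, this shift is a description.

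The 12 strongest regions of the FAK-WT set lay away from promoters in 11 of 12 cases, near genes of unlike roles, and 8 of the 12 held an AP-1 match. The strongest, at −247 bp from a start site of *Popdc2*, a cAMP-binding membrane protein of heart and muscle, had a fold enrichment of 8.89 and 7.01 in FAK-WT 1 and 2. The region near *Abcg3*, a membrane transporter gene, had 10.4 and 8.26, and the one in an intron of *Pappa*, a protease that frees insulin-like growth factors from their binding proteins, had 7.52 and 7.85. None of the 12 had a peak in either FAK-nls library, even in the full lists. The other 9 lay near *Ptprt*, a receptor tyrosine phosphatase (8.27 and 6.78), *Plcb4*, a phospholipase C (8.19 and 7.65), and *Tnr*, a tenascin of the extracellular matrix (8.84 and 7.0). They also lay near *1700057G04Rik*, *Bckdhb*, *Col22a1*, *Epha4*, *Inpp5a* and *Slc4a4*, where FAK-WT values ran from 4.84 to 7.81. *Col22a1* encodes a collagen and *Epha4* an ephrin receptor.

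A peak was present in both full FAK-/- lists at 10 of these 12 regions, and in both FAK-kd lists at 9. Over the whole FAK-WT set the like counts were 1426 and 1298 of 1982. The *Pappa* region had no FAK-/- peak but had a fold enrichment of 6.87 and 7.30 in FAK-kd 1 and 2. The *Slc4a4* region, near the gene of a sodium bicarbonate cotransporter, had no FAK-/- peak and 1 FAK-kd peak (4.50 in FAK-kd 2). At *Popdc2*, by contrast, all 4 of these libraries had a peak, with 6.55 and 5.50 in FAK-/- and 4.43 and 9.05 in FAK-kd.

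In the 12 strongest regions of the FAK-nls set, FAK-WT peaks were weaker rather than missing, except at *Hrh4*, which encodes a histamine receptor. In the *Ano4* intron, in a gene of the anoctamin family, the values were 4.03 and 3.91 in FAK-WT and 5.74 and 5.95 in FAK-nls. Both FAK-nls libraries lay above both FAK-WT libraries there. The same held near *Ibtk* (4.37 and 4.11 against 6.29 and 6.30) and near *Ntrk3*, a neurotrophin receptor (4.04 and 3.82 against 6.04 and 6.07). It held as well at the *Cnot1* promoter, which serves the scaffold of an mRNA deadenylase complex (3.65 and 3.66 against 5.66 and 6.21). Near *Akap13*, an anchoring protein of protein kinase A, FAK-WT 1 had 4.40, FAK-WT 2 had no peak and FAK-nls had 6.06 and 7.46. At *Ptbp2*, a splicing regulator, FAK-WT 1 had 3.12, FAK-WT 2 no peak and FAK-nls 5.30 and 4.93. Others lay near *Cyp7b1*, *Esp1*, *Tcf7l2* and *Syt1*, and 8 of the 12 held an AP-1 match.

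Among the 165 FAK-nls set regions with no FAK-WT peak at any rank, the 12 strongest had fold enrichments from 4.53 to 6.80. They lay near *Hrh4*, *Tmprss2*, a serine protease, *4930544G11Rik*, *Catsperb*, *Intu*, *Ncam1*, *Arhgap20*, *Btg1*, *Smarca2*, *Ppp1r12a*, *Pdha2* and *Sh3d19*. The region in an intron of *Ncam1*, an adhesion molecule, had 4.68 and 5.19 in FAK-nls and was also called in both FAK-/- and both FAK-kd libraries, with values from 4.23 to 6.05. The region in an intron of *Arhgap20* had 4.89 and 5.23 in FAK-nls and no peak in any of the other 6 libraries. Of these 12, 6 held an AP-1 match. The *Smarca2* region, at −464395 bp from the start of this chromatin remodelling ATPase gene, shows that the nearest gene is a position and not a known target. The dot plot of the strongest regions gives each library's value.

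Some genes gathered several regions of the FAK-WT set, which held 5.65% of all regions. Of the 1646 genes nearest to a set region, 1398 had 1 such region, 193 had 2 and 55 had more. The 8 genes named here were chosen for the highest counts. *Flrt2*, which encodes an adhesion and guidance receptor, was nearest to 7 set regions of its 26. Next came *Lrrc4c*, a netrin-G ligand of neurons, with 6 of 19, *Myc*, the growth-promoting transcription factor, with 6 of 35, and *Pappa* with 5 of 9. *Tenm4* (5 of 30), *Rbfox1* (5 of 11), *Efnb2*, an ephrin ligand (5 of 20), and *Gabra2* (5 of 9) followed. In these 8 genes the set regions had no FAK-nls peak in the full lists. The FAK-nls set held 1 region each of *Flrt2* and *Myc*, and none of the other 6 genes.

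These clusters differed in how the other lines shared them. All 6 *Myc* regions, which lay from −375584 bp to 711334 bp from its start, had a peak in both FAK-/- and both FAK-kd libraries. None of the 5 *Pappa* regions had a peak in either FAK-/- library, while FAK-kd 1 had 2 and FAK-kd 2 had 3. Of the 6 *Lrrc4c* regions, FAK-/- 1 had 1, FAK-/- 2 none and each FAK-kd library 5. Of the 5 *Gabra2* regions, 1 was called in FAK-/- cells and none in FAK-kd cells. Over the whole FAK-WT set, by comparison, 1426 of 1982 regions had a peak in both full FAK-/- lists and 186 in neither, and 1298 had one in both full FAK-kd lists and 169 in neither. The other 4 genes were mixed, with a peak in both FAK-/- libraries at 3 of 7 *Flrt2*, 1 of 5 *Tenm4*, 1 of 5 *Rbfox1* and 2 of 5 *Efnb2* regions, and in both FAK-kd libraries at 3, 2, 1 and 2. The *Pappa* regions rose to 7.52 and 7.85 at the fourth of them, the others lay between 4.26 and 6.14 in FAK-WT, and all 5 held an AP-1 match.

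The FAK-nls set held 4.83% of all regions, and 35 genes were nearest to 3 or more of its regions. The genes named here are among those with the highest counts. In this set, *Fam19a2*, which encodes a secreted protein of the nervous system, was nearest to 6 set regions of its 8. FAK-WT 1 had a peak at 5 of the 6 in its full list and FAK-WT 2 at 1. The fold enrichments there were 3.25 to 4.45 in FAK-WT 1, 3.16 in FAK-WT 2, 3.4 to 4.46 in FAK-nls 1 and 4.14 to 5.92 in FAK-nls 2, so the FAK-WT 1 and FAK-nls ranges overlapped. *Rbms3*, an RNA-binding protein, had 5 set regions of 12, *Tcf7l2*, a transcription factor of the Wnt pathway, 4 of 18 and *Trio* 4 of 16. *Ano4* (3 of 8), *Ptbp2* (3 of 20) and *Syt1*, the synaptic calcium sensor (3 of 7), came next. Of these, 2 regions of *Rbms3* and 1 each of *Fam19a2*, *Ptbp2* and *Syt1* had no FAK-WT peak at any rank. *Tcf7l2* also had 2 regions in the FAK-WT set. In all, 1646 genes were nearest to a FAK-WT set region and 1479 to a FAK-nls set region, of 13195 genes with any region, and 248 were nearest to both kinds.

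The sets differed in position relative to genes. Promoters (the 500 bp before and 2000 bp after a protein-coding start site) held 10.1% of the FAK-WT set (95% Wilson interval 8.84 to 11.5), 30.0% of the FAK-nls set (27.8 to 32.2), 45% of the regions in all 4 libraries and 30.5% of all regions. Of 10691 promoter regions, 200 (1.87%) were in the FAK-WT set and 508 (4.75%) in the FAK-nls set. Among the 165 FAK-nls set regions without a FAK-WT peak at any rank the promoter share was 15.8% (11 to 22.1). The median distance to the nearest start site was 20.8 kb in the FAK-WT set, 10.7 kb in the FAK-nls set, 31.9 kb in those 165 regions and 9.91 kb over all regions. By region centre, 47.3% of the FAK-WT set was intronic and 45.4% intergenic, against 46.3% and 35.9% of the FAK-nls set. Median GC content was 47.4% in the FAK-WT set, 46.8% in the FAK-nls set, 42.2% in the 165 and 49.2% of all regions.

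The strongest promoters of the FAK-WT set belonged to genes with unlike roles. They were *Popdc2*, *Tmem45a*, *Wdr63*, *Pkia*, an inhibitor of protein kinase A, *Htra1*, a secreted protease, *Mdp1*, *Otoa* and *Siglec15*, a lectin of osteoclasts and macrophages. *Htra1* had 5.59 and 4.55 in FAK-WT, and *Siglec15* had 5.14 and 5.13. At all 8 FAK-nls had no peak, while FAK-/- 1 and FAK-kd 2 had one. In the FAK-nls set they were *Cnot1*, *Sipa1l2*, *Fam3b*, *Mylk*, the myosin light chain kinase, *Lonp1*, the mitochondrial protease, *Irx1*, *Rsrp1* and *Zc3h12a*, an RNase that limits cytokine transcripts. At *Zc3h12a* the values were 2.99 and 2.78 in FAK-WT and 3.84 and 4.22 in FAK-nls, and at *Mylk* 4.66 and 3.53 against 5.12 and 5.61. Each of these 8 had a FAK-WT 1 peak in the full list, all below both FAK-nls values.

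AP-1 matches were the sequence feature in which the sets differed most in percentage points among the motifs searched, counted as an exact match on either strand in the central 500 bp. An AP-1 match was present in 55% of the FAK-WT set (52.8 to 57.2), 35.3% of the FAK-nls set (33.1 to 37.6) and 39.4% of all regions. Promoters hold few such matches, so shares outside promoters are the like comparison, and they were 57.8% (55.5 to 60.1) in the FAK-WT set, 46.7% (43.8 to 49.5) in the FAK-nls set, 58.4% in regions of all 4 libraries and 52.0% of all such regions. Among promoters, 30.5% (24.5 to 37.2) of the 200 in the FAK-WT set had a match, against 8.86% (6.69 to 11.6) of the 508 in the FAK-nls set and 10.6% of all promoter regions. The FAK-WT set outside promoters thus stood at the level of the regions shared by both lines, and the FAK-nls set below it. These intervals describe counting error among regions and take no account of the spread between libraries.

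The difference in AP-1 matches was present at each GC content. Outside promoters it was 61.2% against 48.9% in regions below 40% GC, 59.8% against 49.4% at 40 to 45% and 61.0% against 50% at 45 to 50%. It was 55.1% against 39.2% at 50 to 55% GC and 41.4% against 23.5% at 55% and over. A shuffled element of the same letters, ACTCAGT or ACTGAGT, was found in 12.3% and 12.1% of the sets outside promoters and 12.4% of all such regions. With all peaks the AP-1 shares over all regions of a set came to 44.5% in the FAK-WT direction and 40.8% (33.8 to 48.2) in the FAK-nls direction, with 38.2% of all regions.

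**Figure D2:**
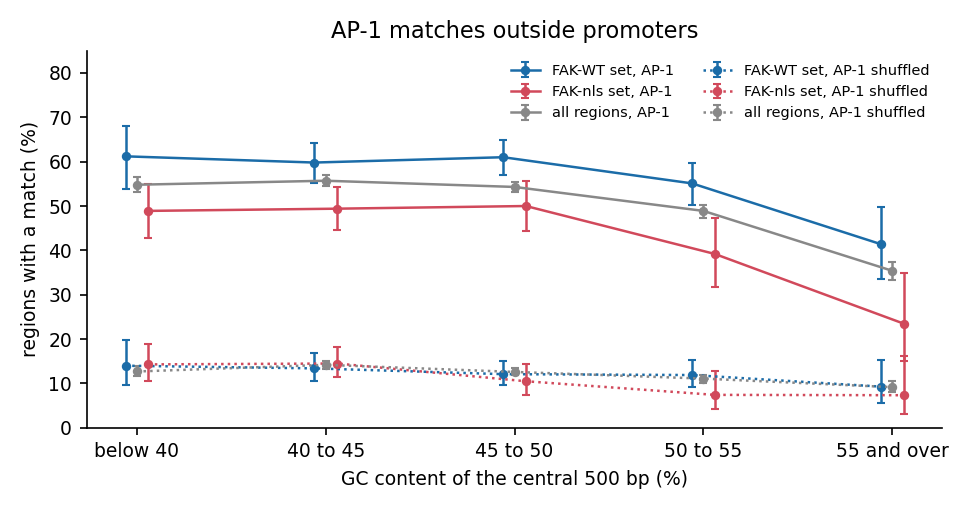
Percent of regions outside promoters with an AP-1 match (solid) or a shuffled element (dotted) in the central 500 bp, by GC content of those bases, in the FAK-WT set (blue), the FAK-nls set (red) and all regions (grey), with 95% Wilson intervals. In each of the 5 GC classes the blue point is above the red one for AP-1, from 61.2% against 48.9% to 41.4% against 23.5%.

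The other motifs differed less between the sets, or differed with promoters. Matches to CTCF, the insulator protein, were in 4.94% (4.07 to 5.99) of the FAK-WT set, 1.95% (1.39 to 2.72) of the FAK-nls set, 1.68% of the regions in all 4 libraries and 3.48% of all regions. With all peaks CTCF matches were in 6.88% of the FAK-WT direction and in 0 of 174 regions of the reverse, which allows a share of up to 2.16%. Over all regions of the full lists the share was 5.19%. Outside promoters CTCF matches were in 4.94% of the FAK-WT set, 2.36% of the FAK-nls set and 4.17% of all such regions. The order of the sets there reversed at 55% GC and over (6.43% and 7.35%), and not in the lower GC classes. The cAMP response element TGACGTCA was in 0.656% of the FAK-WT set, 1.59% of the FAK-nls set and 1.48% of all regions, and outside promoters in 0.730%, 1.18% and 0.696%. Outside promoters, ETS (AGGAAGT or CGGAAGT) was in 19.1%, 16.1% and 17.0%, RUNX (TGTGGTT) in 16.9%, 17.6% and 17.3%, and TEAD (ACATTCC) in 10.0%, 9.77% and 10.7%. KLF (CCACACCC) was in 6.73%, 5.22% and 6.39%, the GATA family element (searched as AGATAAG) in 4.71%, 4.55% and 5.08%, CEBP (TTGCNNAA) in 19%, 22.8% and 21.4%, and p53 matches in 4.94%, 4.97% and 4.75%. In these lists the 3 values are the FAK-WT set, the FAK-nls set and all regions.

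Genes were also read in 29 lists by function, each with the regions nearest to its members. Chemokines had the highest share in the FAK-WT set of the 29 lists, with 7 of 49 regions (14.3%, against 5.65% of all regions) and 1 in the FAK-nls set (2.04%, against 4.83%). Of the 7, 3 were promoters. The promoter of *Ccl8*, which encodes a chemokine for monocytes, had 6.59 and 4.84 in FAK-WT, that of *Cxcl10*, an interferon-induced chemokine for T cells, 5.34 and 4.11, and that of *Ccl2*, another monocyte chemokine, 3.84 and 3.38. FAK-nls had no peak at these 3 promoters. In the full lists FAK-/- had 5.44 and 5.18 at *Ccl8*, 3.70 and 3.30 at *Cxcl10* and 3.90 and 3.39 at *Ccl2*, and the *Cxcl10* peaks were not among the 24383 strongest of either library. FAK-kd had 5.11 and 4.44 at *Ccl8*, no peak and 4.47 at *Cxcl10*, and 3.23 and 4.60 at *Ccl2*. A region near *Ccl9*, of which 2 of 4 regions were in the set, had 4.94 and 3.81. The single FAK-nls set region, near *Ccl28*, had 2.63 and 2.89 in FAK-WT and 2.91 and 2.92 in FAK-nls. Because *Ccl2* and *Ccl8* are neighbours on chromosome 11, their regions are not separate loci.

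Other signalling lists also had more FAK-WT set than FAK-nls set regions, beside 5.65% and 4.83% over all regions. Notch signalling had 8 and 1 of 91 (8.79% and 1.1%), with FAK-WT set regions near *Jag1* (6.21 and 5.75) and *Dll4* (5.60 and 4.72), which are ligands, and near the co-activators *Maml2* and *Maml3*. The region near the Notch target *Hes1* was in the FAK-nls set, with 3.91 and 3.64 in FAK-WT and 5.18 and 5.19 in FAK-nls. The EGF receptor family had 8 and 2 of 92 (8.70% and 2.17%), among them *Egfr* itself (8.66 and 5.08) and the ligand genes *Nrg1* and *Btc*. Cytokines and their receptors had 10 and 2 of 164 (6.10% and 1.22%), so their FAK-WT set share was near that of all regions and their FAK-nls set share below it. Among the 10 were *Tnfrsf11b*, a decoy receptor (7.93 and 5.15), *Il24* and *Tnfsf11*. RUNX, GATA and TEAD factors had 8 and 3 of 101 (7.92% and 2.97%), with *Vgll3*, a TEAD cofactor, at 6.27 and 6.29 and with no peak in any other line. The list of AP-1 factors had 6 and 2 of 80 (7.5% and 2.5%). It also counts *Bach1*, *Bach2* and *Nfe2l2*, which are not genes of the JUN, FOS or ATF families. Its FAK-WT set regions were 3 of *Atf3* and 1 each of these added genes. Regions of *Jun* and *Fosb* were in the FAK-nls set.

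A smaller group of lists had more FAK-nls set than FAK-WT set regions, again beside 5.65% in the FAK-WT set and 4.83% in the FAK-nls set over all regions. Wnt signalling had 11 regions in the FAK-WT set and 15 in the FAK-nls set of 163 (6.75% and 9.20%), which is above the share over all regions in both directions, the latter including 4 of *Tcf7l2* and the promoter of the receptor gene *Ror2* (4.80 and 3.28 in FAK-WT, 5.75 and 4.13 in FAK-nls, which overlap). Chromatin modifiers had 9 and 15 of 174 (5.17% and 8.62%). At the promoter of *Chd4*, a remodelling ATPase, FAK-WT had 2.80 and 2.79 and FAK-nls 4.14 and 3.99, and at a region near *Hdac4* FAK-WT 1 had 3.96, FAK-WT 2 none and FAK-nls 4.32 and 5.36. Matrix proteases had 6 and 9 of 137 (4.38% and 6.57%), and keratins 0 and 2 of 21, both of the single gene *Krt80*. Focal adhesion and actin linkers, the proteins with which cytoplasmic FAK acts, had 9 and 9 of 212 (4.25% each), and nuclear import and export 2 and 2 of 56. Of the 15 chromatin modifier regions 2 had no FAK-WT peak at any rank, and of the 15 Wnt regions 1, near *Sfrp1*. The plot of gene lists gives both shares by list.

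At *Il33*, which encodes an alarmin of the interleukin-1 family found in the nucleus, 1 of 7 regions was in the FAK-WT set and none in the FAK-nls set. The set region lies in an intron, at −3206 bp from the nearest start site (chr19:29942388-29942780). Its fold enrichment was 6.32 in FAK-WT 1, 4.01 in FAK-WT 2 and 5.88 in FAK-/- 1, and the other 5 libraries had no peak there. It was near the limit of the lists, at rank 23497 in the weaker FAK-WT library. The *Il33* promoter region had 3.34 and 3.4 in FAK-WT, 3.42 in FAK-nls 1 and 3.48 in FAK-kd 2, and no peak in FAK-nls 2, in FAK-kd 1 or in the FAK-/- libraries. A region at −7501 bp was called throughout, with 8.49 and 5.33 in FAK-WT and 4.61 and 4.28 in FAK-nls. Both FAK-WT values were above both FAK-nls values there, by 0.41 ± 0.17 (SE) on the log2 scale after quantile normalisation (limma, adjusted p = 0.348).

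The other genes that the study links to FAK had 10 regions in the FAK-WT set and 5 in the FAK-nls set of 102, counting *Il33* (9.80% and 4.90%, beside 5.65% and 4.83% over all regions, so the FAK-nls share is near the background). This list was drawn from the study's text, so its direction is not independent evidence. *Runx1*, a transcription factor of blood and epithelia, had 5 FAK-WT set and 2 FAK-nls set regions of 25, and the 5 had FAK-WT values from 3.28 to 6.34. One of these was a promoter region with 3.89 and 3.48. *Atf3*, a stress-induced AP-1 factor, had 3 of 9 in the FAK-WT set, with 7.01 and 4.08 at the strongest, and all 3 had peaks in both FAK-/- and both FAK-kd libraries. *Cdkn1a*, the cell cycle inhibitor p21, had 2 of 3 regions in the FAK-nls set, both in its promoter. At the first, FAK-WT had 3.97 and 3.18 and FAK-nls 3.56 and 3.71, which overlap. At the second they had 3.73 and 3.18 against 4.16 and 4.22, which do not. The value of 3.18 is the same FAK-WT 2 peak in both, at rank 24408, just past the strongest peaks used. The FAK-WT 1 peaks were at ranks 26129 and 28752. With all peaks both lie in 1 region, so they are not separate loci. The difference FAK-WT minus FAK-nls there was −0.34 ± 0.14 (SE) on the log2 scale (limma, adjusted p = 0.351). *Jun* had 1 of 16 regions in the FAK-nls set (3.17 and 3.54 against 3.71 and 3.89). *Ptk2* had 12 regions and none in either set, so the calls at the deleted gene give no check of the labels.

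The libraries of FAK-/- and FAK-kd cells, which the rule did not use, called the FAK-WT set more often than the FAK-nls set. At equal peak number, 56.6% and 53.1% of the FAK-WT set were called in FAK-/- 1 and 2 and 49.0% and 52.1% in FAK-kd 1 and 2. For the FAK-nls set the shares were 33.3% and 37.9% in FAK-/- and 44.5% and 33.7% in FAK-kd, and for all regions 63.7% to 64.5%. All 4 libraries were higher for the FAK-WT set, by less than 5 percentage points in FAK-kd 1. Among the FAK-WT set, 415 regions (20.9%) were called in both FAK-/- and both FAK-kd libraries and 334 (16.9%) in none of them, and among the FAK-nls set 158 (9.32%) and 485 (28.6%). Over all regions these shares were 46.1% and 18.3%, so the 16.9% is near the background. Presence in both FAK-WT and both FAK-kd libraries with absence in FAK-nls and FAK-/- was found for 91 regions (4.59%), and presence in FAK-WT and FAK-/- with absence in FAK-nls and FAK-kd for 130 (6.56%). Over all regions the same patterns in FAK-/- and FAK-kd made up 2.56% and 2.62%. With full lists the shares called lay between 68.3% and 88.6% for the FAK-WT set and between 71.6% and 87.0% for the FAK-nls set, so the gap between the sets narrowed. Over all regions they lay between 77.5% and 89.2%. Each set was below all regions in each library, except the FAK-WT set in FAK-/- 1 (87.5% against 87.0%). In FAK-kd 1 the sets had 68.3% and 71.8% against 77.5%. The order also depended on the FAK-WT libraries. With sets made without FAK-WT 1 or without FAK-WT 2, the mean share called in FAK-/- was 40.1% and 41.9% in the FAK-WT direction and 46.3% and 45.3% in the FAK-nls direction.

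**Figure D3:**
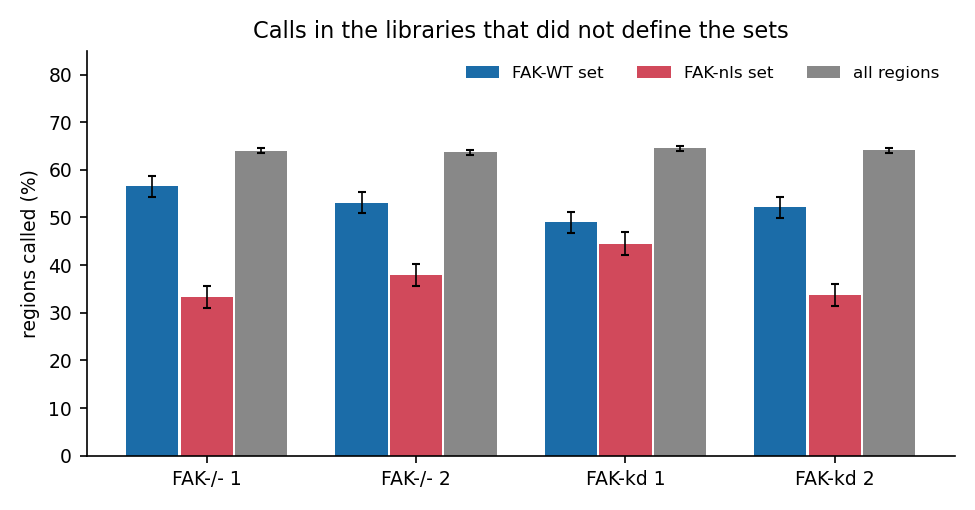
Percent of the FAK-WT set (blue), the FAK-nls set (red) and all regions (grey) called among the 24383 strongest peaks of each FAK-/- and FAK-kd library, with 95% Wilson intervals. In each of the 4 libraries the FAK-WT set is called more often than the FAK-nls set, from 56.6% against 33.3% in FAK-/- 1 to 49.0% against 44.5% in FAK-kd 1.

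Few regions belonged to 1 line alone. With the full lists of all 8 libraries, 73 FAK-WT set regions (3.68%) had a peak in no other line, and 36 FAK-nls set regions (2.12%). Those shares are of the whole sets and are not a like comparison. Of the regions without a peak in the full lists of the opposing line, they were 73 of 1942 and 36 of 165. The strongest of the 73, named after their values were seen, lay near *Rbfox1* (7.03 and 5.74), *Zfpm2*, a GATA cofactor (7.11 and 5.63), *Cadm2*, an adhesion molecule (6.22 and 5.42), *Hspa13*, *Slc24a3* and *Slc8a1*, a sodium-calcium exchanger (6.45 and 5.13). Those of the 36 lay near *Arhgap20*, *Pdha2*, *Fhit* (4.64 and 5.16), *Ccnh*, *Gm5426* and *Ntf3*, a neurotrophin (4.29 and 4.27). AP-1 matches were in 57.5% of the 73 and 47.2% of the 36, and promoters made up 5.48% and 5.56%.

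The sets, which held 5.65% (FAK-WT) and 4.83% (FAK-nls) of all regions, were not spread evenly along the genome. Chromosomes 10, 11, 13 and 19 had the highest shares of FAK-nls set regions, with 7.63%, 6.28%, 7.12% and 6.11% of their regions, and, leaving out chromosome Y, the lowest of FAK-WT set regions, with 4.43%, 4.89%, 3.97% and 3.49%. The reverse was seen on chromosomes X (6.59% FAK-WT set and 3.42% FAK-nls set), 7 (6.91% and 3.80%) and 2 (6.52% and 3.78%). In windows of 1 Mb, the FAK-WT set was densest on chromosome 12 at 31 to 32 Mb (8 of 32 regions, near *Gpr22*, *Hbp1* and *Cog5* among others) and chromosome 9 at 70 to 71 Mb (8 of 37, of which 4 near *Lipc*). Windows that held 7 were chromosome 12 at 95 to 96 Mb (7 of 19, all near *Flrt2*), chromosome 7 at 128 to 129 Mb and chromosome 2 at 148 to 149 Mb, and that around *Pappa* held 6 of 12. The FAK-nls set was densest on chromosome 7 at 19 to 20 Mb (7 of 53, including the *Fosb* promoter), where every region had a FAK-WT peak in the full lists. On chromosome 6 at 66 to 67 Mb it held 5 of 14 regions, near *Mad2l1* and *4930544G11Rik*, and 4 of these had no FAK-WT peak.

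Regions called in all 4 libraries allowed a test of peak strength. Entry still rested on presence, since it needed a peak in each full list. Regions of the FAK-nls set could therefore enter, and those of the FAK-WT set could not. Over all peaks, 19094 regions were called in all 4 libraries. The log2 fold enrichment of the strongest peak of each was compared with limma after quantile normalisation. No region passed an adjusted p of 0.05 in either direction (0 higher in FAK-WT, 0%, and 0 higher in FAK-nls, 0%). Below an unadjusted p of 0.05, 1317 (6.90%) were higher in FAK-WT and 1111 (5.82%) higher in FAK-nls. Leaving out a library left 1 library in its line, so only the size of the differences was read. The median absolute log2 difference was 0.144 with all 4 libraries. It was 0.173 and 0.175 without FAK-nls 1 and 2, and 0.144 and 0.167 without FAK-WT 1 and 2. On pileup in place of fold enrichment, 117 regions passed the adjusted threshold higher in FAK-WT and 143 higher in FAK-nls. Before normalisation the median region was 0.15 higher in FAK-WT on the log2 scale, and the differences are relative to that shift.

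Among the regions with the smallest p in the FAK-nls direction was the promoter of *Atad3a*, a mitochondrial ATPase, with 4.60 and 4.51 in FAK-WT and 7.56 and 7.32 in FAK-nls. The difference FAK-WT minus FAK-nls was −0.87 ± 0.15 (SE) on the log2 scale (limma, adjusted p = 0.161). *Esp1* (−0.88), *Cnot1* (−0.82), *Ntrk3* (−0.77), *Grik2* (−0.76), *Ibtk* (−0.73) and *Tcf7l2* (−0.71) followed, each with both FAK-nls libraries above both FAK-WT libraries. In the other direction came a region near *Alg10b*, a glycosyltransferase, with 9.56 and 8.40 in FAK-WT, 4.65 and 4.88 in FAK-nls and a difference of 0.72 ± 0.14. An intronic region of *Entpd1*, the ectonucleotidase CD39, had 7.48 and 7.59 against 3.64 and 4.05 (0.82 ± 0.16). *Adam4*, *Gm13283*, *Nln*, *Btg1*, *Lce3f* and *Nfyb* had differences of 0.72 to 0.85, each with no overlap between lines. The adjusted p was 0.161 for each of these regions. Those of the FAK-nls direction that were also in the FAK-nls set were *Esp1*, *Cnot1*, *Ntrk3*, *Grik2*, *Ibtk* and *Tcf7l2*. That set was chosen on the ranks of the same peaks, so their differences are not independent of it. No FAK-WT set region could enter this test, since none had a peak in both full FAK-nls lists.

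Classes of these shared regions were compared within each library. Outside promoters, regions with an AP-1 match had a median log2 fold enrichment 0.15 and 0.13 above those without in FAK-WT 1 and 2, and 0.07 and 0.08 above in FAK-nls 1 and 2. Both FAK-WT values were higher, with a two-sided exact permutation p of 0.333, the smallest possible. For the shuffled element the values were 0.05 and 0.03 against 0.02 and 0.03 (exact permutation p = 0.667), and for CTCF −0.02 and −0.05 against −0.04 and −0.04 (exact permutation p = 1.00). Promoters stood −0.11 and −0.02 from other regions in FAK-WT and 0.03 and 0.02 in FAK-nls (exact permutation p = 0.333). By region, the median difference FAK-WT minus FAK-nls was 0.05 outside promoters with AP-1, 0.00 without, and −0.05 in promoters, against −0.01 over all. It was 0.04 with TEAD, 0.04 with RUNX, 0.03 with CTCF and 0.03 with shuffled AP-1 matches outside promoters, and regions can hold several of these motifs. The fold enrichment and pileup of whole libraries also differed between lines, and their part in these values was not tested.

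Gene lists showed small medians in these shared regions, and no member passed the adjusted threshold. Below an unadjusted p of 0.05, 6.90% of all regions were higher in FAK-WT and 5.82% higher in FAK-nls. Cytokines and receptors had 13 of 86 regions higher in FAK-WT and 2 higher in FAK-nls, and matrix proteases 13 and 2 of 69. Genes of epithelial-mesenchymal transition had 8 and 1 of 52, and antigen presentation and immune checkpoints 5 and 0 of 22. TGF-beta and BMP signalling had 12 and 12 of 112. Matrix proteases leaned to FAK-WT here, whereas by set they had 6 FAK-WT set and 9 FAK-nls set regions of 137, so the 2 measures differed. The same list of AP-1 factors, with its added genes, had 0 and 4 of 44, with a median of −0.10, and 13 of the 44 were higher in FAK-WT by value. Chemokines had 0 and 1 of 22, but their 7 FAK-WT set regions could not enter this test, which needs a peak in both FAK-nls libraries. Of the FAK-linked genes, *Ptk2* had a region at −36506 bp with 8.07 and 7.74 in FAK-WT and 5.16 and 4.94 in FAK-nls (0.45 ± 0.15, limma, adjusted p = 0.257). *Nr4a1*, an orphan nuclear receptor, had a region at −7828 bp with 5.72 and 5.82 in FAK-WT and 7.15 and 6.92 in FAK-nls (−0.47 ± 0.15, limma, adjusted p = 0.245). The *Fosl2* promoter, of an AP-1 subunit, had 3.85 and 3.28 against 4.43 and 4.37 (−0.41 ± 0.14, limma, adjusted p = 0.271). The list as a whole had 30 of 59 regions higher in FAK-WT and a median of 0.01.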

How the data were processed

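ATAC-seq peak lists of 2 FAK-WT and 2 FAK-nls libraries were compared, and those of FAK-/- and FAK-kd cells were read beside them. The authors aligned reads to mm10 with the bcbio pipeline and called broad peaks in each sample separately with MACS2 (2.1.1 in the submitters' processing notes). The handling of duplicate reads is not given in the sources used here. Of the deposited values, the pileup is a coverage signal in reads, fold enrichment is the ratio of pileup to local background, and the −log10 p and −log10 q are the authors' test of each peak. A q-value threshold of 0.05 is stated, but the deposited lists go beyond it and were used as deposited. They hold no read counts, so no count test was made, and a region that was not called may still be accessible.

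Within each library, peaks were ranked by −log10 p (chromosomes 1 to 19, X and Y alone), and the 24383 strongest were taken, the size of the smallest list. Overlap of 1 bp or more joined peaks of the 4 libraries into a region, which counted as called wherever a library had a peak in it. Regions were assigned by their centre to the nearest start site of a protein-coding gene (GENCODE vM21, GRCm38), and sequence was read from the RefSeq genome of that build. Motifs were exact matches on both strands. In limma, regions called in all 4 libraries were fitted by line on the log2 fold enrichment of the peak with the highest −log10 p, after quantile normalisation, with empirical Bayes and trend and Benjamini-Hochberg adjustment at 0.05. Values per library were compared by exact permutation. Shares have 95% Wilson intervals, which cover counting only. Region merging and the limma fit were tested on simulated data.

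Named were the 12 strongest regions per direction by the worse rank of the pair (and 12 of the FAK-nls set without a FAK-WT peak), the 8 genes with most regions, 8 promoters, up to 4 members per gene list, 6 windows of 1 Mb, the 8 smallest limma p per direction, *Ptk2*, *Il33* and the FAK-linked genes, of which only some are described. Some items that met these rules are not reported here. Members, lists and tests were chosen with earlier results of these data known. Alternatives were other peak numbers, ranking, merging, overlap, peak width, motif window, start sites and values, a replicate block, and each library left out in turn. Tools were R 4.3.3, limma 3.58.1, Python 3.11.15, numpy 2.4.6, pandas 2.3.3, scipy 1.17.1, pysam 0.24.0 and matplotlib 3.10.9.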

Additional observations from a re-analysis of the deposited data

How the results depend on the processing

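The 2 sets depended on how many peaks were used and which libraries were in the comparison. The FAK-WT set counted 1982 regions and came to 10666 with all peaks, 1283 with the 15000 strongest, 4402 where peaks had to cover 50% of a region and 9183 with a minimum −log10 q of 3. Leaving out each library in turn gave 3136 to 4245. The FAK-nls set counted 1695 and came to 174 with all peaks, 2595 ranked by fold enrichment and 58 with the minimum q, and to 2663 to 4247 with a library left out. The 12 strongest and 8 promoter regions named for the FAK-WT set (19 in all) stayed in it under these settings. Other named regions, such as that of *Il33* at rank 23497, lie beyond the 15000 strongest peaks. With all peaks, 1 of the 12 strongest regions of the FAK-nls set (*Hrh4*) and 0 of its 8 promoters stayed. Counting also the regions chosen for having no FAK-WT peak, 30 were named, of which 16 stayed with the minimum q, 26 ranked by fold enrichment and 28 with 50% cover. Promoter shares were 14% and 34.3% with start sites of all genes, 15.5% for the FAK-nls set with all peaks, and 9.82% to 12.9% and 21.9% to 40.4% with a library left out.

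AP-1 shares of the FAK-WT and FAK-nls sets were 44.5% and 40.8% with all peaks, 40.8% and 21.2% in the central 200 bp, 57.8% and 46.7% outside promoters, and 49.1% to 53.3% and 31.6% to 40.1% with a library left out. The mean share called in FAK-/- libraries was 54.8% for the FAK-WT set (59.6% for the set made from all peaks, 40.1% to 63.5% with a library left out) and 35.6% for the FAK-nls set (44.5%, and 23.1% to 46.3%). In FAK-kd libraries it was 50.6% (57.1%, and 36.3% to 60.3%) and 39.1% (49.4%, and 24.3% to 50.2%), and the FAK-WT set fell below the FAK-nls set when either FAK-WT library was left out. The cause was not tested.

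The limma test found 0 regions in both directions, but 117 higher in FAK-WT and 143 higher in FAK-nls on pileup. With a library left out it found 0 to 133 and 0 to 86, a fit in which the lone library is assumed to vary like the others. Without FAK-nls replicate 1 or 2 there were 77 and 133 higher in FAK-WT and 42 and 86 higher in FAK-nls. With a replicate block there were 120 and 48. Deviations of same-numbered libraries from the mean of their line correlated at −0.029. With 2 libraries a line, the value for replicate 2 equals that for replicate 1 by construction. Whether same-numbered libraries shared a batch cannot be read from this value alone. Adjusted p of the 16 named regions ran from 1.12e-06 to 0.796 over the alternatives, and none changed direction. Peak length and read depth limit what a missing call shows.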
